A study of Homo sapiens with 2 samples.

Results

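Immediate early genes were examined in MOLM-13 cells, a human acute myeloid leukemia line, as 10 genes selected by symbol out of the 50868 genes of the deposited expression table. They were the zinc finger transcription factors EGR1, EGR2 and EGR3, the AP-1 subunits FOS, FOSB, JUN and JUNB, the response genes IER2 and IER3, and the phosphatase gene DUSP1. The 10 genes were chosen from the read counts that are described here, with the difference between the libraries already known, so their values are a description and carry no test. All 10 of the 10 genes had at least 10 reads over both libraries, the minimum for computing a fold change, and 15384 genes of the table passed that minimum and are called measured below. RNA was sequenced from 1 library of MOLM-13 cells with the vector control genotype (Vector) and 1 library of MOLM-13 cells labelled as overexpressing UNC5B (OE-UNC5B), a netrin receptor. According to the study's methods the construct was lentiviral, with UNC5B behind a CMV promoter together with mCherry and a puromycin marker. Both libraries came from the same line, kept in medium with fetal bovine serum. The sources used here do not say whether the cells were a clone or a pool, or how long they had been in medium before RNA was taken.

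Immediate early genes are transcribed within minutes of a growth factor, serum, stress or adhesion signal, from promoters that already hold paused RNA polymerase II, and without new protein synthesis. ERK, p38 and JNK kinases reach them through the serum response factor SRF with its ternary complex partners such as ELK1, which bind CArG boxes, and through CREB family factors, which bind cAMP response elements (CRE). The transcripts are short-lived, since AU-rich elements in many of their 3' ends recruit decay factors such as ZFP36, and phosphatases such as DUSP1 shut off the kinases that induced them. In myeloid cells EGR and AP-1 factors are known as regulators of monocyte and macrophage programmes.

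The libraries held 13715566 reads (Vector) and 15637137 reads (labelled OE-UNC5B), and levels are given as CPM, the read count scaled to library size with a TMM factor that centres most genes. UNC5B (chr10:71212570-71302864, plus strand) had 0 reads in either library, where 3 reads would be 0.222 and 0.189 CPM. The overexpression was therefore not visible in the counts, and every direction given for the library labelled OE-UNC5B rests on its label. Each group had 1 library, so no difference could be set against the spread between replicates. Intervals are 95% exact intervals of the reads, which cover counting error only and not the variation between cultures.

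Summed over the 10 genes, Vector held 8388 reads, against 5629 in the library labelled OE-UNC5B. This was 622 and 354 CPM, a log2 ratio of -0.81 (95% counting interval -0.86 to -0.76). All 10 genes had a log2 fold change below 0, as did 50.6% of all measured genes. For 9 of the 10 the whole counting interval lay below 0, which was so for 26.3% of measured genes and for 30.6% of those with at least 50 reads. Of the 10 genes, 4 (IER2, EGR3, FOSB and EGR2) were lower by at least 2-fold and 0 were higher by at least 2-fold. From the deposited FPKM, 2 of the 10 were lower by at least 2-fold with 0.1 added and 1 with 1 added. Genes under 1 FPKM in both libraries were left out there. Among those were EGR2 (0.67 and 0.14 FPKM) and FOSB (0.30 and 0.06 FPKM), whose folds were thus not assessed. Over all measured genes 4.79% were lower and 5.15% were higher by at least 2-fold. Each of the 10 genes also had at least 50 reads, and above that depth 2.42% of genes were lower and 2.92% were higher. The members' median log2 fold change was -0.83, against -0.01 over all genes. IER2 (130 to 19.0 CPM) and FOS (199.6 to 112 CPM) gave the largest differences in CPM. Without IER2 the other 9 genes went from 6638 to 5327 reads, a log2 ratio of -0.55.

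**Figure D1:**
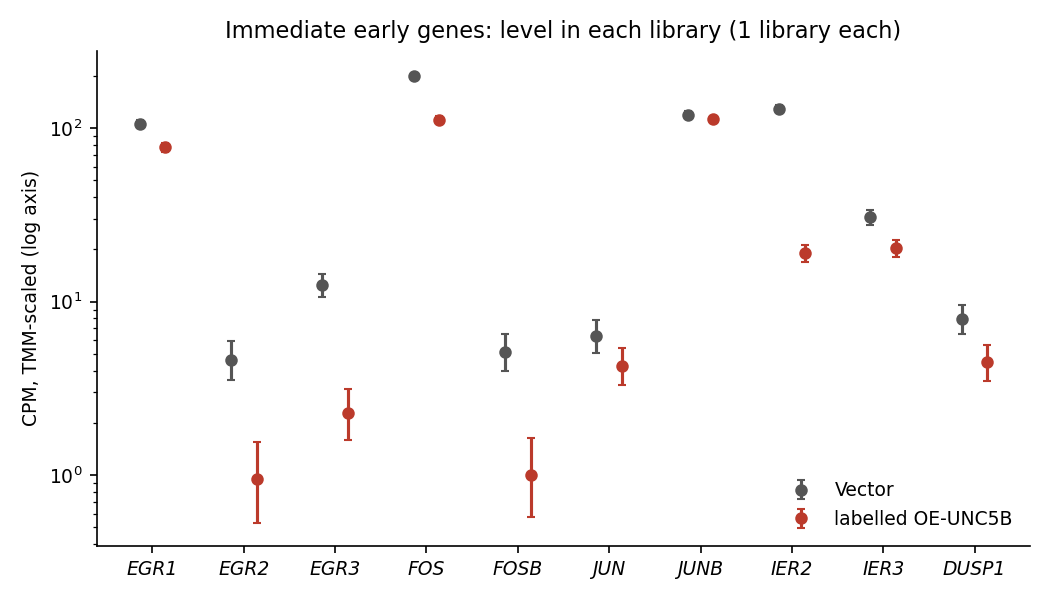
Level of each of the 10 genes in CPM (log axis) in Vector (grey) and in the library labelled OE-UNC5B (red), with 1 library each. Bars are 95% counting intervals. IER2 went from 130 to 19.0 CPM, while JUNB was at 119 and 112 CPM.

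**Figure D2:**
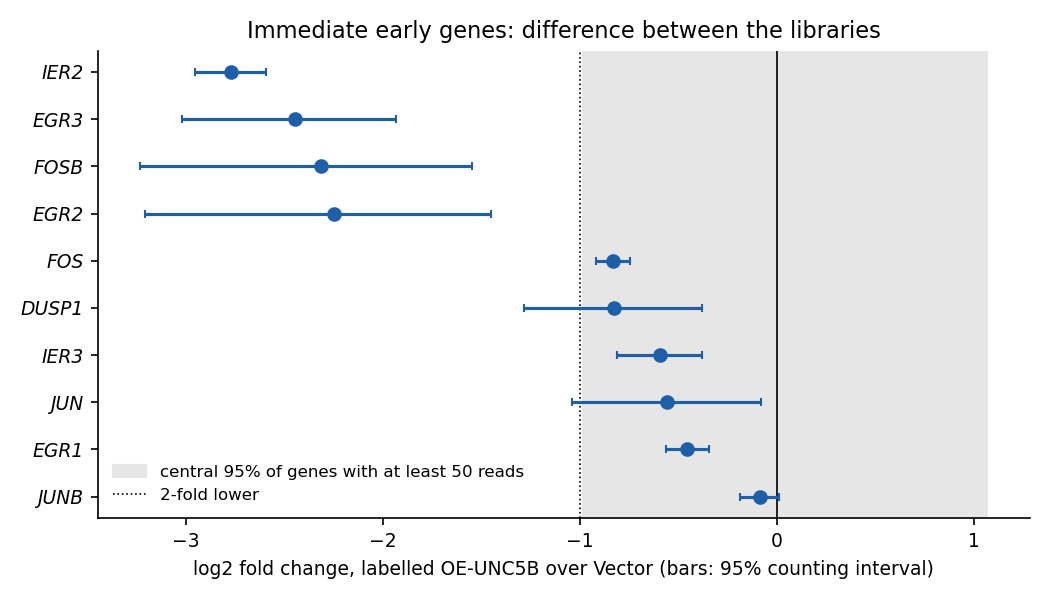
Log2 fold change of the library labelled OE-UNC5B over Vector for each of the 10 genes, ordered by size, with 95% counting intervals. The grey band, from -0.98 to 1.07, holds the central 95% of genes with at least 50 reads. IER2, EGR3, FOSB and EGR2 lie below the band, and the other 6 genes lie inside it.

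The promoters are shown first because they hold the elements through which these genes are known to be induced. RefSeq windows on GRCh38.p14 that start within 100 bases of the main transcript were found for 8 of the 10 genes. The windows were searched over the 250 bases before the start. The motifs were the CArG box (by its name, an A/T-rich core between CC and GG), the CRE (TGACGTCA), its half-site (TGACG, which also lies inside the CRE), the AP-1 site (TGANTCA) and the EGR site (GCGNGGGCG), on both strands. The TATA box (TATAAA) was searched on the gene's strand only. The 150 bases before the start of 6 genes are printed from 5' to 3' on the gene's strand, with matches to any of these motifs in capitals. A half-site on the other strand reads CGTCA. EGR1 and EGR2 stand for the CArG-bearing pair that differed in fold, FOS and FOSB for the AP-1 pair that differed, and IER2 and JUNB for the lowest and the highest fold change of the 10.
EGR1, chr5:138465329-138465478, plus strand: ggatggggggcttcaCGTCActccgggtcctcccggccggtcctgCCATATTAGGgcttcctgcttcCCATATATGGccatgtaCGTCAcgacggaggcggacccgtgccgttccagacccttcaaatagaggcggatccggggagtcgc
EGR2, chr10:62816367-62816516, minus strand: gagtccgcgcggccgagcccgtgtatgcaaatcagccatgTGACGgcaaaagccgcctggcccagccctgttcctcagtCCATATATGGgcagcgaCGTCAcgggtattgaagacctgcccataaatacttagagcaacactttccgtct
FOS, chr14:75278678-75278827, plus strand: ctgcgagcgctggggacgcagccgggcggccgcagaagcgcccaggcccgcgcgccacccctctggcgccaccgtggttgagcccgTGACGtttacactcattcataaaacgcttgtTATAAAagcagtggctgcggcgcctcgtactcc
FOSB, chr19:45467846-45467995, plus strand: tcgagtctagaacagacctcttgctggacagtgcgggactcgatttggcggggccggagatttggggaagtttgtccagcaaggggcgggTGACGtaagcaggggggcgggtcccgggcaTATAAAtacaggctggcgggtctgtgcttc
IER2, chr19:13150261-13150410, plus strand: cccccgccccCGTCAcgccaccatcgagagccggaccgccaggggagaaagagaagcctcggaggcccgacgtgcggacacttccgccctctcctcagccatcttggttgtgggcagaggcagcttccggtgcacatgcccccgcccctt
JUNB, chr19:12791336-12791485, plus strand: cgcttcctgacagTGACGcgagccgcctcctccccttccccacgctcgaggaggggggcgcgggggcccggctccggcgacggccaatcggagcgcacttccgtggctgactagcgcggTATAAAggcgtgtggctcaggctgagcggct

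EGR1 held 2 CArG boxes, from 105 to 96 and from 83 to 74 bases before the start, and EGR2 held 1, from 71 to 62 bases before it. Of 14661 protein-coding promoters of this length 1.08% held a CArG box, and 6 promoters held more than 1. The CRE half-site was found in 8 of the 8 windows, compared with 26.6% of all promoters. In EGR1 (66 to 62 bases before the start) and in EGR2 (54 to 50) a half-site lay on the start side of the CArG boxes. FOS and FOSB shared a layout, a half-site about 60 bases before the start and a TATA box at 33 to 28 and 30 to 25 bases before it. DUSP1 alone among the 8 held the full CRE, from 125 to 118 bases before the start, which 2.56% of promoters held. The AP-1 site was found in 0 of the 8 windows and in 4.65% of promoters. The EGR site was found in EGR1 alone, 198 to 190 bases before the start, and in 12.6% of promoters. The TATA box was found in 4 of the 8 windows (FOS, FOSB, JUNB, DUSP1) and in 6.79% of promoters. IER2 and JUNB each held 1 half-site near the far end of the printed stretch. Whether the layout relates to the fold changes of the 8 genes was not tested.

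The same motifs were followed in other genes. Outside the 10 genes, 83 measured genes carried a CArG box in this window. Their median log2 fold change was 0.02, and 4.82% of them were lower by at least 2-fold. For the 2899 measured genes with a CRE half-site the median was -0.03 and 2.97% were lower. For the 311 with a TATA box, which 4 of the 8 members held, the median was -0.02, with 7.07% lower and 5.14% higher by at least 2-fold. All 9205 measured genes with a window had a median of -0.01, with 3.60% lower and 3.64% higher. A match is a string of letters and not a bound site, and elements further upstream lie outside the window.

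**Figure D3:**
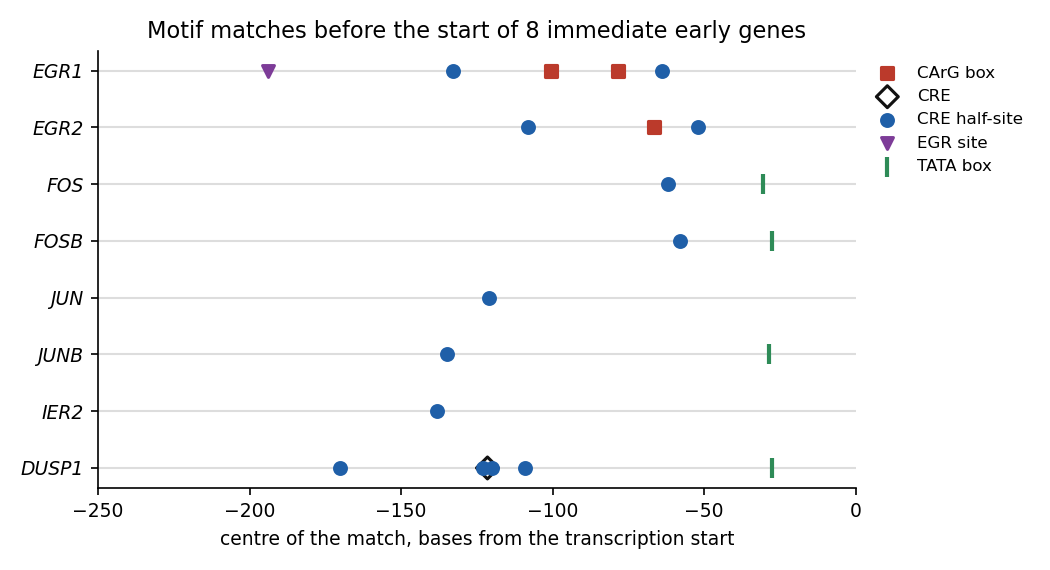
Centres of motif matches in the 250 bases before the transcription start of 8 immediate early genes, in bases from the start. Every row carries at least 1 CRE half-site (blue), CArG boxes (red) appear only in EGR1 and EGR2 of these 8, and the TATA boxes (green) of FOS, FOSB, JUNB and DUSP1 lie between 33 and 25 bases before the start.

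EGR1, the EGR factor that most cell types induce after serum or ERK signalling, lies at chr5:138465490-138469315 on the plus strand (ENSG00000120738). EGR1 had 1430 reads (Vector) against 1230 reads (labelled OE-UNC5B), or 106 and 77.4 CPM. The log2 fold change was -0.45 (-0.57 to -0.34), so EGR1 was 1.37-fold lower.

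EGR2, which shares the zinc finger domain of EGR1 and is known for macrophage and Schwann cell programmes, was given at chr10:62811996-62919900 on the minus strand (ENSG00000122877). The table's span ran far beyond the end of the gene in GENCODE 44, 62819167, and the reads could not be placed within it. EGR2 had 62 and 15 reads, or 4.60 and 0.943 CPM, a log2 fold change of -2.25 (-3.20 to -1.45). EGR3, a factor that EGR1 and calcium signals are known to induce in lymphocytes and neurons, lies on chromosome 8 (ENSG00000179388). It had 168 and 36 reads, or 12.5 and 2.26 CPM, a log2 fold change of -2.44 (-3.02 to -1.93). From the deposited FPKM with 1 added, which is large beside the level of EGR3, its log2 fold change was -0.90, short of 2-fold. Both genes were lower in reads, 4.75-fold for EGR2 and 5.44-fold for EGR3, and the interval of their difference on the log2 scale, -1.19 to 0.90, spanned 0.

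The members of the EGR family were then compared with each other. The log2 fold change of EGR3 differed from that of EGR1 by -2.01 (-2.58 to -1.46), and that of EGR2 by -1.83 (-2.76 to -0.99). EGR1 made up 86.1% of EGR family reads in Vector (Wilson interval 84.4% to 87.7%) and 96.0% in the library labelled OE-UNC5B (94.8% to 97.0%). EGR3 went from 10.1% to 2.81% of those reads. There were 8.51 EGR1 reads per EGR3 read in Vector, against 34.2 in the library labelled OE-UNC5B. The fourth family member, EGR4, had 0 reads in both libraries, which allows up to 3 reads in each. The corepressors that bind EGR proteins, NAB1 (165 and 211 reads, log2 fold change 0.12) and NAB2 (181 and 195 reads, -0.13), had counting intervals that spanned 0. WT1, a related zinc finger factor, went from 639 to 611 reads, a log2 fold change of -0.30, and 0 of these 3 measured genes were past 2-fold.

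FOS, the AP-1 subunit that pairs with JUN proteins and cannot pair with itself, lies at chr14:75278774-75282230 on the plus strand (ENSG00000170345). It had the most reads of the 10 genes, 2692 (Vector) against 1781 (labelled OE-UNC5B), or 199.6 and 112 CPM. The log2 fold change was -0.83 (-0.92 to -0.75), a 1.78-fold lower level, at rank 1081 from the lowest of the 15384 genes.

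FOSB, a FOS relative that is known to persist as a truncated form after repeated stimulation, lies at chr19:45467995-45475179 on the plus strand (ENSG00000125740). It had 69 and 16 reads, or 5.11 and 1.01 CPM, a log2 fold change of -2.31 (-3.23 to -1.55). ERCC1, a DNA repair gene on the opposite strand, overlaps FOSB and had 1339 and 2047 reads. Whether the counting used strand is not given in the sources used here, so the FOSB reads cannot be told apart from ERCC1 reads in the overlap.

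JUN, the founding AP-1 subunit and substrate of the JNK kinases, lies at chr1:58780788-58784327 on the minus strand (ENSG00000177606). It had 85 and 68 reads, or 6.30 and 4.28 CPM, a log2 fold change of -0.56 (-1.04 to -0.08). JUNB, a JUN relative with weaker activation and a role in restraining myeloid growth, lies at chr19:12791496-12793315 on the plus strand (ENSG00000171223). It had 1611 and 1787 reads, or 119 and 112 CPM, a log2 fold change of -0.09 (-0.19 to 0.01). JUNB was the 1 gene of the 10 whose counting interval reached 0, and with a trend on length subtracted it was -0.01 (length from count and FPKM) or 0.01 (main transcript length, chosen after the values were seen). HOOK2, on the opposite strand, overlaps JUNB and had 236 and 292 reads.

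The AP-1 subunits were also compared with their closest relatives. The log2 fold change of FOSB differed from that of FOS by -1.51 (-2.40 to -0.71), and FOS reads per FOSB read went from 39.0 to 111. The same difference for JUN against JUNB was -0.47 (-0.96 to 0.02). FOS made up 42.2% of the reads of FOS, FOSB, FOSL1 and FOSL2 in Vector (41.0% to 43.5%) and 24.8% in the library labelled OE-UNC5B (23.8% to 25.8%), where FOSL2 took 73.5% after 54.8% in Vector. FOSL2, which is known as a slower and more stable FOS relative, had 3491 and 5287 reads, a log2 fold change of 0.36 (0.30 to 0.42). JUND, the constitutive JUN relative, made up 74.9% and 77.5% of JUN family reads, with 5059 and 6388 reads and a log2 fold change of 0.10. Of the 12 other AP-1 subunits measured (15 listed), 0 were lower and 2 were higher by at least 2-fold, with a median of 0.25. JDP2, a repressor that dimerises with JUN, had 139 and 584 reads (log2 fold change 1.83), and MAFK, a small MAF protein, had 271 and 705 reads (1.14). ATF3, a stress-induced repressor of the same dimer family, had 49 and 76 reads, with an interval from -0.14 to 0.94.

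IER2, a short nuclear protein induced by growth factors, lies at chr19:13150415-13154908 on the plus strand (ENSG00000160888). IER2 had 1750 reads (Vector) against 302 reads (labelled OE-UNC5B), or 130 and 19.0 CPM. The log2 fold change was -2.77 (-2.95 to -2.59), a 6.82-fold lower level, at rank 85 from the lowest of all measured genes. Its interval was narrower than those of EGR2 and FOSB, which rest on fewer reads, and its log2 fold change differed from that of EGR3 by -0.31 with an interval of -0.87 to 0.28.

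IER3, a survival factor of the ERK and NF-kB pathways that is no sequence relative of IER2, lies at chr6:30743199-30744554 on the minus strand (ENSG00000137331). It had 414 and 323 reads, or 30.7 and 20.3 CPM, a log2 fold change of -0.59 (-0.81 to -0.38). In Vector there were 0.237 IER3 reads per IER2 read and in the library labelled OE-UNC5B 1.07. DUSP1, the nuclear phosphatase that inactivates p38, JNK and ERK, lies at chr5:172768090-172771195 on the minus strand (ENSG00000120129). It had 107 and 71 reads, or 7.93 and 4.47 CPM, a log2 fold change of -0.83 (-1.28 to -0.38). Noncoding genes on the opposite strand that overlap IER2, EGR3, IER3 and DUSP1 had at most 5 reads in either library where the table held them.

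Levels of different genes were compared as RPKM, the CPM divided by the length of the main GENCODE transcript in kilobases. In Vector, FOS was highest at 94.8 RPKM, followed by JUNB at 65.3 and IER2 at 61.5, whose counting intervals overlapped. EGR1 (33.8 RPKM) and IER3 (24.8 RPKM) came next. DUSP1 (3.94 RPKM), EGR3 (2.76 RPKM), JUN (1.93 RPKM), EGR2 (1.54 RPKM) and FOSB (1.35 RPKM) were lowest, and from EGR3 on each interval overlapped that of its neighbour. In the library labelled OE-UNC5B, JUNB was highest at 61.4 RPKM and FOS followed at 53.2 RPKM. IER2, at 9.0 RPKM, came below EGR1 (24.7 RPKM) and IER3 (16.4 RPKM). EGR3 (0.502 RPKM), EGR2 (0.317 RPKM) and FOSB (0.267 RPKM) were lowest, with overlapping intervals. The 4 genes lower by at least 2-fold were thus IER2, which was among the 3 highest in Vector, and 3 of the 5 lowest.

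**Figure D4:**
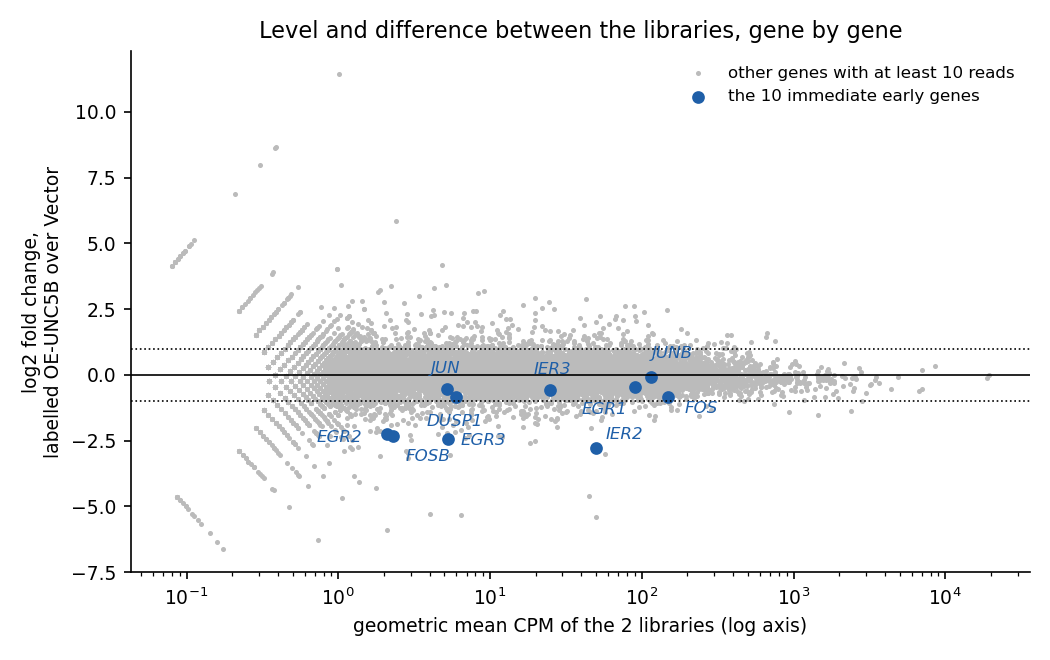
Log2 fold change of the library labelled OE-UNC5B over Vector against the geometric mean CPM (log axis) for genes with at least 10 reads, with the 10 immediate early genes in blue and 2-fold marked by dotted lines. IER2, EGR3, FOSB and EGR2 lie below the lower dotted line, IER2 at the highest level of these 4, and JUNB lies near 0.

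Among 9061 protein-coding genes that reached 10 CPM in either library, IER2 had the 4th lowest and EGR3 the 7th lowest fold change. The genes nearest to them in that order were sought, as the likeness measure, over these 2 libraries only. Among the 5 lowest genes outside the 10 were AC105052.3 (346 and 10 reads), AL662899.2 (214 and 30 reads), CXCL8 (610 and 118 reads) and PRG2 (639 and 130 reads). AC105052.3 and AL662899.2 overlap 5 and 3 other genes, so their counts depend on how shared reads were assigned. CXCL8 encodes the neutrophil chemokine interleukin-8 and PRG2 the eosinophil granule major basic protein.

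A list of 46 other immediate early genes was described in the same way. Of the 43 measured, 8 were lower and 0 were higher by at least 2-fold, beside 4.79% and 5.15% of all measured genes. Below 0 were 31 of the 43, beside 50.6% of all measured genes, and the median log2 fold change was -0.28. CXCL8 went from 610 to 118 reads, a log2 fold change of -2.60 (-2.90 to -2.32). PTGS2, the inducible cyclooxygenase, had 26 and 8 reads (-1.88). The macrophage chemokine genes CCL4 (21 and 7 reads, -1.76) and CCL3 (228 and 80 reads, -1.74) were the next lowest. ZFP36, the mRNA decay factor, had 1184 and 1496 reads (0.10), and MYC had 345 and 451 reads (0.15). The nuclear receptor gene NR4A1 had 47 and 37 reads, a log2 fold change of -0.58 with an interval from -1.24 to 0.07.

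Lists of genes that act before and after the immediate early genes were described in the same way. Over all measured genes 4.79% were lower and 5.15% were higher by at least 2-fold, the background for this and the following lists. Of 24 RAS, ERK, p38 and JNK pathway kinase genes, 1 was lower and 1 was higher by at least 2-fold, with a median of 0.03. MAPK14, which encodes p38 alpha, had 2558 and 1050 reads, a log2 fold change of -1.52 (-1.63 to -1.42). RPS6KA2, an ERK-activated S6 kinase, had 71 and 406 reads, a log2 fold change of 2.27 (1.91 to 2.66). MAPK3, which encodes an ERK protein, had 210 and 230 reads (-0.11), with an interval that spanned 0.

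Of 14 genes for SRF, its partners and CREB factors, 0 were lower and 1 was higher, with a median of 0.10. ELK3, a ternary complex factor that can repress, had 66 and 180 reads, a log2 fold change of 1.20. SRF (1433 and 1542 reads, -0.13), ELK1 (351 and 351 reads, -0.24) and CREB1 (235 and 264 reads, -0.07) differed little. Cytoskeletal targets of SRF (16 measured) had a median of -0.01, and 0 were past 2-fold.

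Feedback genes other than DUSP1 lay above 0 at the median. Of 7 other MAPK phosphatases measured, 0 were past 2-fold and the median was 0.29, with DUSP6, the cytoplasmic ERK phosphatase, at 125 and 196 reads (0.41, interval 0.08 to 0.75). Of 11 other ERK feedback genes measured, 0 were past 2-fold and the median was 0.35. Their Sprouty genes were uneven. SPRY1 (129 and 112 reads, -0.44) and SPRY4 (87 and 70 reads, -0.55) lay below 0, and SPRY2 (245 and 405 reads, 0.49) lay above it. Below 0 were 2 of the 7 phosphatases and 5 of the 11 feedback genes, beside 50.6% of all measured genes. DUSP2, 1 of these phosphatases, had 236 and 194 reads (-0.52, interval -0.80 to -0.24).

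The 19 genes for AU-rich element binding and deadenylation had a median of 0.13, and 0 were past 2-fold. The 20 genes for promoter-proximal pause release had a median of -0.06. Of these AFF1, a scaffold of the super elongation complex, was the 1 gene past 2-fold, with 600 and 2961 reads and a log2 fold change of 2.07. The 11 listed heat shock genes, some of which are known to be induced from paused polymerase, had a median of -0.83. Of these, 10 were below 0, beside 50.6% of all measured genes. The 2 lower by at least 2-fold were HSPA1A (17 and 8 reads) and HSPA1B (696 and 402 reads), near-identical copies that share reads.

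**Figure D5:**
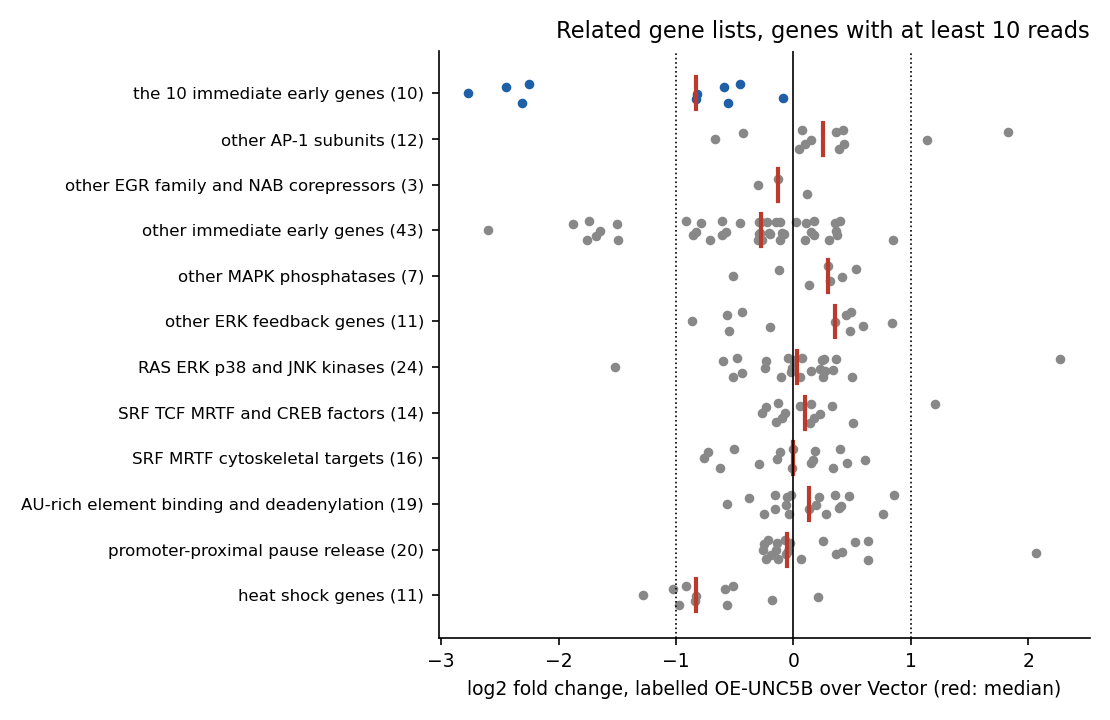
Log2 fold change of the library labelled OE-UNC5B over Vector for genes with at least 10 reads in the 10 immediate early genes (blue) and 11 related lists (grey), with the number of genes in brackets, the list median in red and 2-fold marked by dotted lines. The medians run from -0.83 for the 10 genes and for the heat shock genes to 0.35 for other ERK feedback genes.

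The main transcripts of the 10 genes had 1 to 4 exons, compared with a median of 9 over protein-coding genes, of which 20.1% had so few. JUN and JUNB had 1 exon, and FOS, FOSB and DUSP1 had 4. Their main transcripts were 1237 (IER3) to 4514 bases (EGR3) long, with a median of 2545, compared with 3275 over protein-coding genes. Length and exon number moved with fold over the whole table. Protein-coding genes with a main transcript under 2000 bases had a median of -0.19, those from 2000 to 4000 bases -0.05 and those above 4000 bases 0.13. Of 797 genes with 1 or 2 exons 8.66% were lower and 5.14% were higher by at least 2-fold, compared with 4.28% and 3.93% of all protein-coding genes. Of 2045 genes with at most 4 exons and at least 50 reads 4.65% were lower and 2.89% were higher, compared with 2.40% and 2.72% at that depth. When the trend with main transcript length was subtracted, the summed log2 ratio of the 10 genes was -0.74 and 4 of the 10 were still lower by at least 2-fold. This subtraction was chosen after the values were seen. The part of exon number in the result was not tested.

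The pentamer AUUUA, the core of AU-rich elements, was counted in the 3' untranslated region of each main transcript. IER3 held 6 copies, FOS 5 and DUSP1 4, EGR3, FOSB and JUN 3 each, EGR2 and JUNB 2 each, EGR1 1 and IER2 0. The median over protein-coding genes was 2, and 38.1% held at least 4. IER2, with 0 copies, had the lowest fold change, and IER3, with the most, was 1.51-fold lower. Over the table, 734 genes held at least 4 copies in a region under 1500 bases, with a median of 0.02 and 3.95% lower by at least 2-fold. The 3320 genes with 0 copies had a median of -0.15, and 5.24% were lower.

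Genes within 250 kb of each of the 10 had medians between -0.37 and 0.33. Around IER2, 12 neighbours were measured, 2 of them lower by at least 2-fold, with a median of -0.37 against -2.77 for IER2 itself. Around JUNB, 3 of 29 were lower and 2 were higher, with a median of -0.30. Around EGR3 (8 neighbours, median -0.09) and FOSB (16 neighbours, median -0.13) 0 were lower by at least 2-fold.

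Markers of cell identity were read beside these values. Of 17 listed myeloid and MOLM-13 markers 14 were measured, of which 6 were below 0, 2 were lower and 1 was higher by at least 2-fold, with a median of 0.15. Their reads summed to 103067 and 73877, with SPI1 at 3219 and 3228 reads and CD33 at 1775 and 2299 reads. LYZ (51742 and 23700 reads, -1.36) and MPO (3363 and 1553 reads, -1.35), both made in granulocyte and monocyte precursors, were lower, and CEBPB (187 and 557 reads, 1.34), a monocytic transcription factor, was higher. The 10 listed fibroblast markers summed to 143 and 19 reads, and the 3 measured were each lower by at least 2-fold, with a median of -2.0. These were COL3A1 (108 and 6 reads, -4.30), COL1A2 (8 and 2 reads) and COL1A1 (21 and 9 reads, -1.42), while DCN, PDGFRA, FBLN1 and POSTN were at 0 in both libraries. The 10 endothelial markers summed to 1636 and 1478 reads, nearly all from PECAM1 (1626 and 1471 reads), which leukocytes also express, and 6 were at 0 in both libraries, with CDH5 and KDR among them. The 8 epithelial and HEK293 markers summed to 5 and 2 reads, and the 8 lymphoid markers to 420 and 430 reads. Mitochondrial genes took 6.78% and 5.66% of reads. In RNA from many cells, fewer cells that express a gene and less RNA per cell cannot be told apart. The part of cell state, handling of the cultures and time in medium in the lower values was not tested, and with 1 library each they cannot be told apart from the construct.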

How the data were processed

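RNA from MOLM-13 cells was sequenced as 1 Vector library and 1 library labelled OE-UNC5B. Raw read counts for each gene, as deposited by the authors, were used without change. The deposited FPKM values were used as an alternative only. The submitters' processing notes name bcl2fastq 2.19, HISAT2 2.0.4, StringTie 1.3.0 and GRCh38. The annotation release and the use of strand are not given in the sources used here.

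TMM scaling was done in edgeR 4.0.16 (R 4.3.3). Log2 fold changes had 0.5 reads added to each count and were kept for genes that reached 10 reads in total, and a gene was counted as lower or higher at 2-fold. Intervals were 95% Clopper-Pearson intervals of the ratio of reads (scipy 1.17.1), Wilson intervals of shares and exact conditional intervals of odds ratios. With 1 library per group no test of the conditions could be fitted. The procedure was tested on simulated data. Transcript lengths, exons and 3' untranslated regions came from GENCODE 44, and promoters from RefSeq GRCh38.p14. A window was found for 8 of the 10 genes, and the promoters of EGR3 and IER3 are not analysed here.

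The 10 genes and all gene lists were chosen with earlier results of these data known. Genes named were the 10 genes, UNC5B, in each other list up to 4 lowest and 4 highest past 2-fold, the set SRF, ELK1, CREB1, MAPK3, ZFP36, NAB1, NAB2, MYC, ATF3, NR4A1 and DUSP6, and the 5 lowest other expressed coding genes. Results for 2 genes under this rule are not reported here. Further genes (EGR4, WT1, FOSL1, FOSL2, JUND, DUSP2, SPRY1, SPRY2, SPRY4, SPI1, CD33, PECAM1, CDH5, KDR, DCN, PDGFRA, FBLN1, POSTN, overlapping genes and those named under other observations) were named after their values were seen. Alternatives were other scalings (library totals, DESeq2 1.42.0), length trends (lowess), FPKM, other filters, folds and added reads, and sums without 1 gene.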

Additional observations from a re-analysis of the deposited data

How the results depend on the processing

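No paired analysis was possible because each group held 1 library, and leaving out a replicate would leave a group empty. The summed log2 ratio of the 10 genes stayed below 0 in each alternative run. It was -0.76 and -0.74 with a length trend subtracted (length from count and FPKM, or main transcript length) and -0.55 without IER2. From FPKM with 0.1 or 1 added it was -0.46 and -0.45. These FPKM sums leave out EGR2 and FOSB, which were under 1 FPKM in both libraries. Main transcript length and the sum without IER2 were chosen after seeing the data. Of the 10 genes, 2 and 1 were lower by at least 2-fold from FPKM with 0.1 and 1 added, 2 with at least 200 reads, and 7 at 1.5-fold. Genes under 1 FPKM in both libraries were left out of the FPKM counts. EGR2 and FOSB were under 1 FPKM and under 200 reads, so the FPKM and 200-read settings did not assess their folds. All other settings left 4, the 4-fold threshold included. Over all genes the numbers lower and higher were 281 and 392 (FPKM with 0.1 added), 130 and 165 (1 added), 3079 and 2886 (no filter), 297 and 359 (at least 50 reads), 169 and 239 (at least 200 reads), 1925 and 1989 (1.5-fold) and 177 and 154 (4-fold), with 469 higher among protein-coding genes. Of 66 alternative values of single genes, 62 kept their sign and stayed within the counting interval, 3 moved beyond it, all with 1 added to FPKM (EGR3, -0.90, FOS, -0.74, and IER2, -2.39), and 1 changed sign (JUNB, 0.0105 with the main transcript length trend). The cause of these shifts in single genes was not tested beyond the settings themselves.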

Other observations

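Other inducible genes that the text has not yet described were also uneven. Genes named in this paragraph were chosen after their values were seen. PMAIP1, which encodes the BH3-only protein NOXA, had 1449 and 604 reads, a log2 fold change of -1.50 (-1.64 to -1.36). SOCS3, the feedback inhibitor of cytokine receptors, had 170 and 71 reads (-1.49), and SGK1, a serum- and glucocorticoid-inducible kinase, had 83 and 31 reads (-1.64). The Kruppel-like factors were within 2-fold, KLF2 with 85 and 53 reads (-0.91), KLF4 with 121 and 80 reads (-0.83), KLF6 with 387 and 395 reads (-0.21) and KLF10 with 250 and 382 reads (0.37). The IER2 relatives did not share its value: IER5 had 804 and 1070 reads (0.18, interval 0.04 to 0.31) and IER5L had 139 and 100 reads (-0.71, interval -1.10 to -0.33). The NF-kB feedback genes NFKBIA (211 and 230 reads, -0.11) and TNFAIP3 (1777 and 2689 reads, 0.36) were not lower by 2-fold, although CXCL8, CCL3 and CCL4 were.

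The deposited FPKM values order the 10 genes differently from the RPKM values used here. In Vector the FPKM of FOS was 21.6 and that of JUNB was 64.5, while the RPKM on the main transcript was 94.8 for FOS and 65.3 for JUNB. The length implied by count and FPKM was 4.32 times the longest GENCODE transcript for FOS, 4.37 times for FOSB and 0.995 times for JUNB. Over 696 genes with 1 GENCODE transcript the median of this ratio was 1.0, and over 11234 genes with several transcripts it was 2.19. Fold changes of a gene from its reads, with no length trend subtracted, do not depend on that length. Levels of different genes, and a sum of FPKM over genes, do. Fold changes from FPKM with a constant added also depend on it, as does the 1 FPKM filter that left out EGR2 and FOSB. For EGR3, at 1.34 (Vector) and 0.252 FPKM (labelled OE-UNC5B), the log2 fold change was -0.90 with 1 added, against -2.44 from reads.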
